A study of Mus musculus with 7 samples.

Results

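The genes that supply histones to replicating chromatin were examined in growth plates, the cartilage plates in which long bones lengthen. Members were all genes of the deposited tables whose GENCODE release M21 mouse symbol starts with Hist1h, Hist2h, Hist3h or Hist4h, with those marked as pseudogenes (-ps) left out. This rule gave 66 of 43346 genes, 6 for the linker histone H1 and 20, 15, 12 and 13 for the core histones H2A, H2B, H3 and H4. Of these, 54 are in the Hist1 cluster on chromosome 13, 9 in Hist2 on chromosome 3, 2 in Hist3 on chromosome 11 and 1, Hist4h4, on chromosome 6. The annotation classes 64 of them as protein-coding, and Hist1h2aj and Hist1h2al as pseudogenes. Another 3 annotated histone genes, Hist1h2bh, Hist1h2bm and Hist2h2bb, have no counts in the deposited tables, so the H2B sums leave them out.

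Total RNA was sequenced from tibial growth plates of 7 male mice aged 21 d, all F1 hybrids of C57BL/6J (B6), the standard laboratory strain, and CAST/EiJ (CAST), a wild-derived inbred strain. Each autosomal gene is thus present once from either strain, and the comparison the design offers is CAST against B6 counts of the same gene within the same mice, while levels can only be described across the mice. All 7 mice, numbered 1, 2, 3, 4, 5, 7 and 8 in the labels, form a single condition with no second group. The deposited values are estimated counts per gene and allele, and the total per mouse ran from 14098019 in mouse 7 to 37849667 in mouse 5.

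Replication-dependent histone genes are transcribed in S phase, when newly copied DNA must be packed into nucleosomes. A nucleosome wraps DNA around a core of H2A, H2B, H3 and H4, and H1 binds the DNA that enters and leaves it. Most of these genes have no intron, and their mRNAs end in a conserved stem-loop that Slbp binds, in place of a poly(A) tail. Libraries here were made from ribosome-depleted total RNA without poly(A) selection, so mRNAs of this kind could enter them. In a growth plate, S phase is a feature of the proliferating chondrocytes, and blood-forming cells of the adjoining marrow also divide.

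The stem-loops are shown because they define this gene family. Annotated transcripts were searched on their own strand for 16 bases made of 2 fully pairing arms of 6 bases, the first with GG, 3 pyrimidines and U, around a loop of 4 bases with the letters UNUN. Such a match was found in 44 of 66 members (66.7%) and in 52 of 21951 protein-coding genes (0.237%). The 52 include these 44 members. Several of the other members have transcript models that stop at the end of the coding sequence, for example Hist1h4k, whose model has 312 bases and whose coding sequence has 312. The most frequent form was found in 24 members of H1, H2A, H2B and H3, the second in 7 members that all encode H4, and the third in 6 members that include Hist1h1t, Hist1h2bb and Hist1h3f. A further form, in Hist1h4i and Hist2h4, differs from the second only in the loop. Capitals mark the loop:
Form of 24 members: ggcucuUUUCagagcc
Form of 7 H4 members: ggcccuUUUCagggcc
Form of 6 members: ggcucuUUUAagagcc
Form of Hist1h4i and Hist2h4: ggcccuUUUUagggcc
The arms of the H4 forms printed here are thus the same as each other and differ from those of the other classes.

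Promoters also differed by class. RefSeq promoter sequences (GRCm38.p6, 250 bases before to 50 bases after the start) were held for 59 members and searched on both strands. The letters CCAAT, bound by the factor NF-Y, were in all promoters held of H1 (6), H2A (18), H2B (13) and H3 (10) genes, in 3 of 12 for H4 and in 41.1% of 27025 promoters of all RefSeq genes. TATAAA, the core of a TATA box, was in 59.3% of members and 15.7% of all genes. The octamer ATTTGCAT, bound by Oct1, was in 7 of 18 H2A and 5 of 13 H2B promoters. It was in 0 of those of H1, H3 and H4, and in 1.97% of all genes. Some H2A and H2B genes have divergent starts 176 to 306 bases apart, so the same motif can be counted for both classes. AAACACA, the AC box known from H1 promoters, was in 5 of 6 H1, 2 of 18 H2A and 1 of 13 H2B promoters and in 8.22% of all genes. A stretch of 60 bases around the motif is given on the strand of the gene for the members of highest level that hold it, with the motif in capitals:
Hist1h2bk, chr13:22035765-22035824, plus strand: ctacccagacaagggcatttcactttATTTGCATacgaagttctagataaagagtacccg
Hist1h2bb, chr13:23746618-23746677, plus strand: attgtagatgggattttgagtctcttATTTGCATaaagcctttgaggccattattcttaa
Hist1h2bg, chr13:23571315-23571374, plus strand: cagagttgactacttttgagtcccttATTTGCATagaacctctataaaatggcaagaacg
Hist1h1b, chr13:21780709-21780768, minus strand: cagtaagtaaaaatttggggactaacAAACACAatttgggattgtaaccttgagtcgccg
Hist1h1c, chr13:23738669-23738728, plus strand: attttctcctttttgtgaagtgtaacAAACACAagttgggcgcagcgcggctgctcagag
Hist1h1e, chr13:23622640-23622699, minus strand: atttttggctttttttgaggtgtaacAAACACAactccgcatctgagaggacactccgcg
The octamer lay 30, 90 and 59 bases before the RefSeq start in the 3 H2B genes. In the 3 H1 genes the AC box lay 117, 112 and 115 bases before it, and the letters taac stood directly before it in all of them. These letter matches are descriptions and do not show that a factor was bound.

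Members also share much of their coding sequence, which matters for every count below. The first 60 coding bases of 5 H4 genes are given, with bases that differ from Hist1h4m in capitals (GRCm38/mm10):
Hist1h4m, chr13:21811784-21811843, plus strand: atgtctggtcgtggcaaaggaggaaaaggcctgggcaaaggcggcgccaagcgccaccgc
Hist1h4n, chr13:21832099-21832158, minus strand: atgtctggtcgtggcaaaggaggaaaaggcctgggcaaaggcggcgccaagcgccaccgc
Hist1h4i, chr13:22041264-22041323, minus strand: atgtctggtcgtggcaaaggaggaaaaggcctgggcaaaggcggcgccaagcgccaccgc
Hist1h4d, chr13:23581602-23581661, plus strand: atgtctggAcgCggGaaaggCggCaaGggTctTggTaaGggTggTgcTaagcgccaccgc
Hist4h4, chr6:136804320-136804379, minus strand: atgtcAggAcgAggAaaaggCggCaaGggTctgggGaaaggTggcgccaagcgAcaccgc
Over the whole coding sequence of 312 bases, Hist1h4n differed from Hist1h4m at 0 positions, Hist1h4i at 10, Hist1h4d at 20 and Hist4h4 at 42. The amount of sharing was measured as the share of 75-base windows, the read length, that also occur exactly in a transcript of another gene. Its median over members was 45.9%, from 0.735% in H1 and 24.6% in H4 to 71.5% in H2A. More than 50% of windows were shared in 31 members, and none were shared in 5, Hist1h1a, Hist1h1b, Hist1h1t, Hist2h2be and Hist2h4. The authors' method divides a read that fits several genes among them, which leaves totals that are not whole numbers (tolerance 1e-04). Totals were not whole in at least 1 mouse for 61 of the 64 members tested below, against 49.8% of all tested genes. Only Hist1h1a, Hist1h1b and Hist1h1t had whole totals in every mouse. Totals of Hist2h2be and Hist2h4 were not whole in at least 1 mouse, although they share no window. Windows were matched exactly while the alignment allowed mismatches, so a gene with no shared window can still share reads. Values of single H2A, H2B, H3 and H4 genes are therefore uncertain wherever a near-identical gene could have taken part of the reads, and strand use in counting was not given in the sources used here.

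Counts of these mRNAs were found in the growth plates of every mouse. Summed over the 66 members, histone counts were 7838 ± 1895 CPM (counts per 1000000; SD, n = 7 mice), or 0.571% to 1.00% of a library. At least 10 counts in every mouse were found for 60 members, and no member was at 0 in all mice. CPM sums were 1902 ± 477 for H1, 990 ± 266 for H2A, 1854 ± 454 for H2B, 1158 ± 277 for H3 and 1935 ± 486 for H4. As shares of the sum per kb of merged exons, H4 held 29.3% ± 0.763, H2B 27.3% ± 1.06, H2A 15.9% ± 1.71, H3 15.0% ± 0.440 and H1 12.5% ± 1.46. Some transcript models run far past the coding sequence (Hist1h1d has 7425 exonic and 666 coding bases), so shares were also computed per kb of coding length, an alternative added after the data were seen. They were then 32.1% ± 0.742 for H4, 25.1% ± 0.771 for H2B, 15.1% ± 1.41 for H1, 14.6% ± 0.410 for H3 and 13.1% ± 1.33 for H2A. H4 and H2B thus stood above H3 and H2A by more than the spread over mice under both lengths, while the order among H1, H2A and H3 depended on the length used. In bulk RNA, fewer cells of a type and less RNA per cell cannot be told apart.

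Levels also differed among the genes of a class. Per kb of merged exons the highest H1 genes were Hist1h1b (423 CPM per kb), Hist1h1a (386) and Hist1h1c (310), the first 2 with no shared window. Per kb of coding length, Hist1h1c led with 757 ± 181 CPM per kb, above Hist1h1e (622 ± 130), Hist1h1d (610 ± 159), Hist1h1b (468 ± 134) and Hist1h1a (445 ± 135), and the ranges given by the SD overlapped between neighbours in this order. Among H2A genes Hist2h2aa2 was highest per kb of merged exons with 518 CPM per kb, followed by Hist1h2ab (304) and Hist1h2ap (188). Every window of Hist2h2aa2 is shared with Hist2h2aa1, its neighbour in the opposite direction on chromosome 3, so the split between the pair is uncertain. The highest H2B genes were Hist1h2bk (520 CPM per kb), Hist1h2bb (473) and Hist1h2bn (453). For H3 they were Hist1h3b (336), Hist1h3a (233) and Hist1h3c (205), and for H4 Hist1h4f (557), Hist1h4h (538) and Hist1h4n (335). On coding length Hist1h4d had the highest mean of all H4 genes, 945 ± 226 CPM per kb, with 3.67% of its windows shared. At the low end, Hist1h2aa and Hist1h2ba, known as testis genes, averaged 0.143 and 0.327 counts per mouse. Hist1h1t, the testis H1, had 26.1 ± 9.87 counts (SD, n = 7), against 7461 to 12352 for each of the other 5 H1 genes. Core genes with low values were Hist1h2bq (12.9 counts), Hist2h3c1 (17.7), Hist1h2ai (82.2), Hist2h2ab (84.7) and Hist2h2be (137). The pseudogene-classed members Hist1h2aj and Hist1h2al averaged 0.0228 and 3.73 counts.

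**Figure D1:**
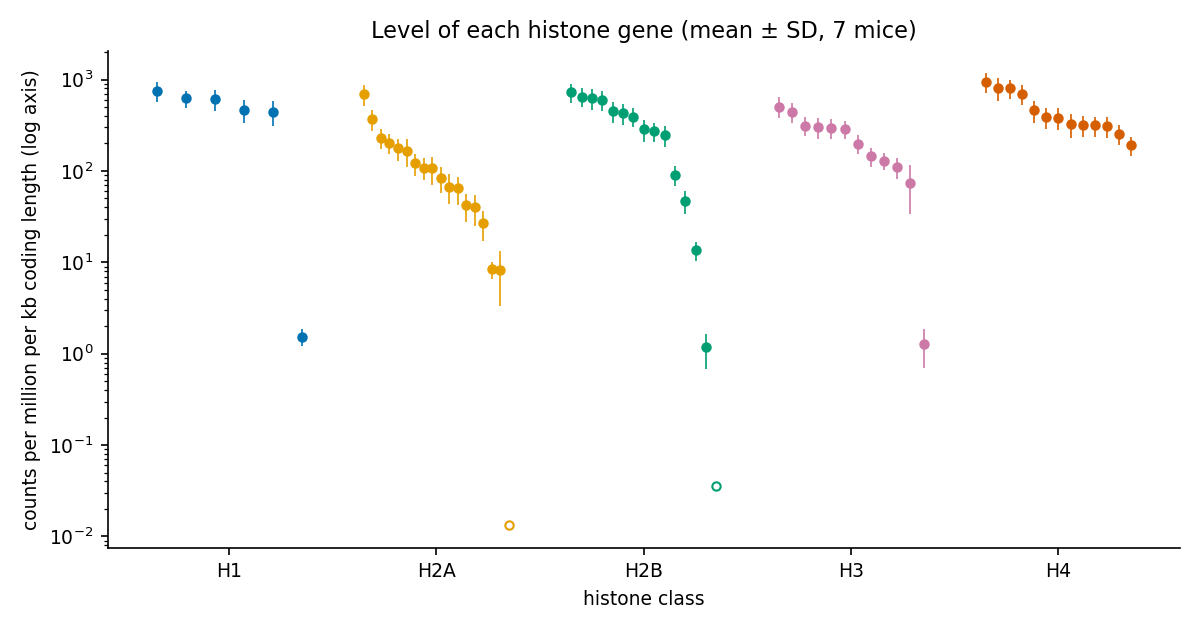
Level of each of 64 histone genes with a coding length, as CPM per kb of coding length on a log axis, by histone class; points are means of 7 mice, bars are SD, and open points are the testis genes Hist1h2aa and Hist1h2ba, whose SD exceeds the mean. The 13 H4 genes run from 190 to 945, whereas H2A genes spread more widely, from 696 (Hist2h2aa2) down to 0.0133 (Hist1h2aa).

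Genes for H2A and H2B often stand back to back with divergent starts. There were 12 such pairs with starts 176 to 306 bases apart. H2B had the higher level per kb of coding length in all 7 mice in 8 of the 12. For Hist1h2bk and Hist1h2ah the levels were 649 ± 153 and 26.7 ± 9.68 CPM per kb (SD, n = 7), and for Hist1h2bg and Hist1h2ae 725 ± 172 and 67.6 ± 24.0. The reverse was found on chromosome 3, where Hist2h2ac had 178 ± 48.0 and Hist2h2be, with no shared window, 13.6 ± 3.28. Hist1h2ao (40.1 ± 15.2) was also above Hist1h2bq (1.17 ± 0.486), 2 genes with 93.1% and 96.1% of windows shared. The pair Hist1h2ap and Hist1h2br had 231 ± 57.8 and 285 ± 79.6, with H2B higher in 6 of 7 mice. Hist1h2aa and Hist1h2ba were close to 0 in both. With 91.5% of Hist1h2ah windows shared with other genes, its low level and the way reads were divided cannot be told apart.

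The summed histone level was not the same in all mice. In mice 1, 2, 3, 4, 5, 7 and 8 it was 5706, 6091, 5931, 8666, 8525, 9907 and 10043 CPM, so the highest was 1.76 times the lowest. Mice 1, 2 and 3 were lowest in all classes, and the gap from 6091 to 8525 held no mouse. The same 3 mice were lowest when the 3 abundant noncoding RNAs Rn7s1, Rn7s2 and Rn7sk were left out of the denominator (max over min 1.95), with TMM effective library sizes (1.98) and with protein-coding counts alone as denominator (1.99). The coefficient of variation over mice had a median of 25.5% over the 60 members that reached 10 counts in all mice, and of 15.1% over the 15111 genes that did so.

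Members moved together across mice. The median correlation of log2 CPM between pairs of members was 0.91 over 1770 pairs, and 0.22 over all pairs of the 15111 genes, each over the same 7 mice and libraries. Within classes the medians were 0.98 for H4, 0.97 for H2B, 0.95 for H1, 0.95 for H3 and 0.91 for H2A. Between classes, the lowest median was that of H1 with H2A, 0.61. Mouse 5 had the highest H1 share of the summed level per kb (15.0%) and the lowest H2A share (13.6%), while mouse 3 had the highest H2A share (18.5%). These correlations are descriptions, since members share reads and all points share 7 libraries.

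**Figure D2:**
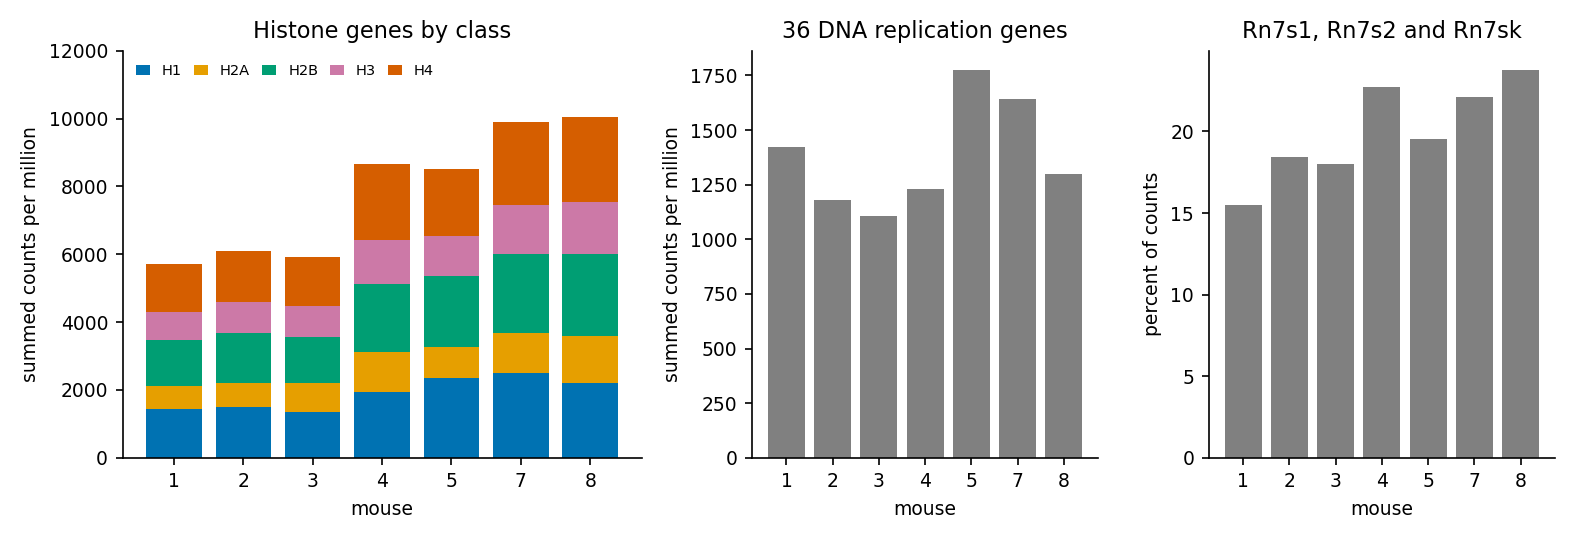
Left, summed CPM of the histone genes in each of the 7 mice, stacked by class; middle, summed CPM of 36 DNA replication genes; right, percent of counts on Rn7s1, Rn7s2 and Rn7sk. The histone sum is 5706 to 6091 in mice 1 to 3 and 8525 to 10043 in the others, whereas the DNA replication sum is highest in mouse 5 (1774) and lowest in mouse 3 (1106).

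Other measures varied among mice too. A list of 36 DNA replication genes, including Pcna, the Mcm helicase genes and Rrm2, summed to 1420, 1180, 1106, 1231, 1774, 1641 and 1301 CPM in mice 1, 2, 3, 4, 5, 7 and 8. Mouse 1, with the lowest histone sum, had a higher sum here than mouse 8, with the highest. The median correlation of members with these genes was 0.21, against 0.75 among the 36 genes. Rn7s1, Rn7s2 and Rn7sk held 15.5%, 18.5%, 18.0%, 22.8%, 19.6%, 22.1% and 23.8% of counts in the same order of mice. Histone transcription and mRNA processing genes summed to 514 to 622 CPM, and chaperones to 860 to 1138, with the lowest value of both in mouse 4. The part of these in the histone difference was not tested.

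All 8 chondrocyte markers were detected, with a summed level of 55234 CPM in mouse 8 to 92211 in mouse 4, so the labelled tissue was present in each library. Markers of other tissues were also found, none of them at 0 in all mice. Erythroid markers (6 genes) summed to 4776 to 11710 CPM, highest in mice 5 and 7, and neutrophil markers (7 genes) to 1474 to 3178, highest in the same mice. B-lineage markers (7 genes) summed to 132 to 365 CPM, skeletal muscle markers (5 genes) to 3229 to 6619 and osteoblast markers (6 genes) to 3080 to 3707. Their part in the histone levels was not tested.

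Summed over all members, the allele counts were close to balance. The sums include 15 tested members whose allele counts were equal in every mouse, described below. Their equality need not be a measurement of balance, and it draws the shares toward 50%. The B6 share of histone counts ran from 50.3% in mouse 7 to 50.9% in mouse 1, with a mean of 50.8% ± 0.198 (SD, n = 7). It was 52.3% ± 0.820 for H3, 52.0% ± 0.313 for H4, 50.7% ± 0.582 for H2B, 50.3% ± 0.333 for H1 and 47.4% ± 0.558 for H2A, so H2A was on the CAST side and H3 and H4 on the B6 side in every mouse. By cluster it was 51.3% ± 0.229 for Hist1, 47.1% ± 1.25 for Hist2 and 54.9% ± 1.30 for Hist3, while the lone Hist4 gene had 31.6% ± 0.555. The total of such a sum does not depend on how reads were divided among near-identical members of it. Its B6 share can, where a read fits the B6 copy of 1 member and the CAST copy of another, which was not tested. The sums can also depend on division with genes outside them. In Hist2h3c1, for example, 100% of windows are shared with another gene but 33.8% with a member.

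Single genes were tested with edgeR's likelihood-ratio test of CAST against B6 at a false discovery rate (FDR) under 0.20 over all 20239 tested genes. Of the 66 members, 64 passed the filter (a count above 0 for an allele in every mouse), and Hist1h2aa and Hist1h2ba did not. Of the 64, 23 were called (35.9%), and the background over all tested genes was 34.5%. CAST was higher in 9 of them, with a background of 16.0% of all tested genes, and B6 in 14, with a background of 18.5%. In this fit, which leaves the pairing of alleles within a mouse out, the members' share of calls was thus near the background. Calls were 2 of 6 in H1, 7 of 19 in H2A, 4 of 14 in H2B, 4 of 12 in H3 and 6 of 13 in H4. The median log2 fold change was 0.02 in members and 0.01 in all tested genes, and the median size without sign was 0.18 and 0.22. The same allele was higher in all 7 mice for 35 members (13 CAST, 22 B6), or 54.7%, with a background of 24.4%. Both alleles of a mouse come from a single library, and in a fit that takes the mouse as replicate block 43 members were called, 18 higher on CAST and 25 on B6 (67.2%, with a background of 45.3%). At least 10 counts in every mouse were reached by 60 of the 64 members and by 15111 of the 20239 tested genes. Members and background were not compared at equal counts, and members that share reads are not separate observations. The excess over these 2 backgrounds is thus a description.

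**Figure D3:**
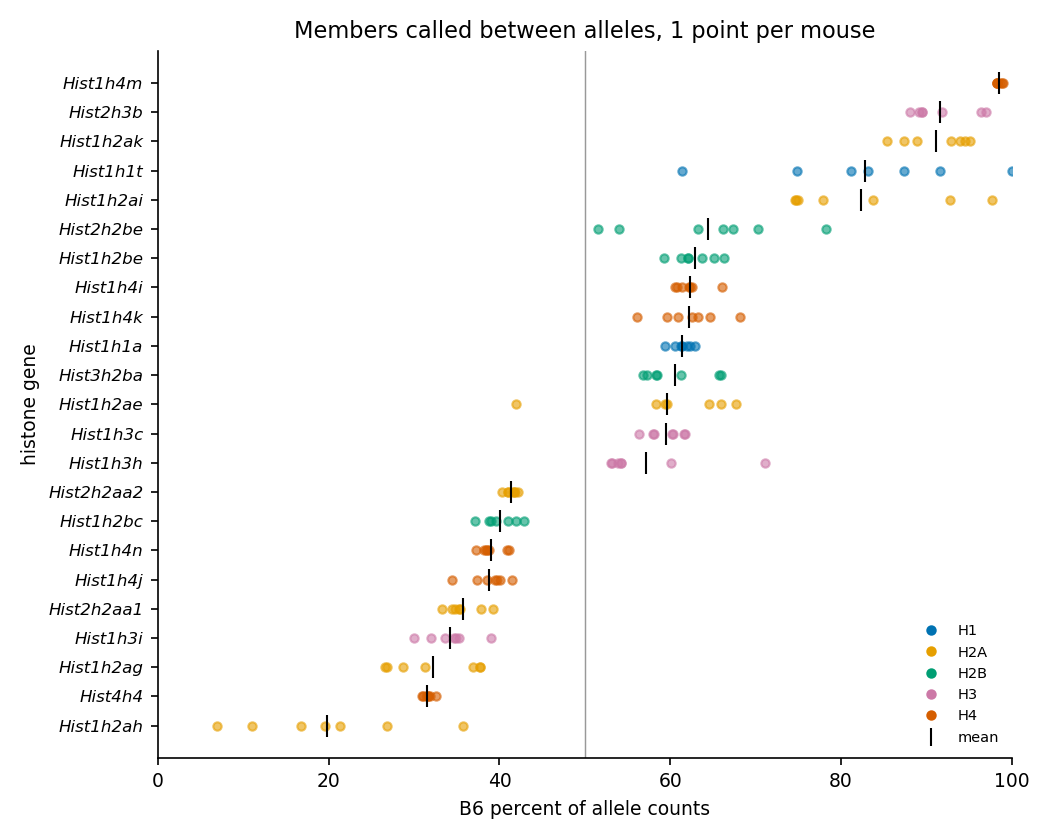
B6 percent of the allele counts for the 23 histone genes called between alleles, with 1 point per mouse, colours for histone class and a vertical mark for the mean. Hist1h4m stands at 98.3% to 99.0% in all 7 mice, Hist4h4 at 30.9% to 32.6%, and Hist1h2ae is the gene with a mouse on the opposite side of 50%.

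Of the H1 genes, Hist1h1a and Hist1h1t were called, both on the B6 side and both with no shared window. The B6 counts of Hist1h1a were 4282, 3967, 2843, 3444, 9316, 3409 and 4856 in mice 1, 2, 3, 4, 5, 7 and 8, and the CAST counts 2711, 2707, 1849, 2172, 5725, 2014 and 2933. B6 was higher in 7 of 7 mice, with a B6 share of 59.4% to 62.9%, although the ranges of the counts over mice overlapped between alleles. Its log2 fold change was -0.67 (SE 0.198, FDR 0.00489 with edgeR). Hist1h1t had a larger difference on far fewer counts (log2 fold change -2.17, SE 0.369, FDR 6.63e-08 with edgeR), with 21.9 B6 and 4.25 CAST counts on average, with a B6 share from 61.4% to 100%. The other major H1 genes were on the CAST side by small amounts, with B6 shares of 47.0% ± 0.597 for Hist1h1c, 48.2% ± 0.821 for Hist1h1b and 48.3% ± 0.763 for Hist1h1e (SD, n = 7). None of these 3 was called without the block (FDR 0.532, 0.789 and 0.711), and all were called under the replicate block. Their FDR was then 2.15e-43, 3.32e-09 and 1.43e-10 with the likelihood-ratio test. With the quasi-likelihood test it was much less small, 5e-05, 0.00279 and 0.00186. The alleles of Hist1h1d were equal in every mouse. Hist1h1e overlaps Hist1h2be in the annotation and shares 22.7% of its windows with it.

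H2A genes held some of the largest imbalances, most of them in genes with much shared sequence. Hist1h2ak had 372 to 806 B6 and 23.6 to 138 CAST counts, which did not overlap, and its B6 share was 85.4% at the lowest, 92.9% at the median and 95.1% at the highest (log2 fold change -3.19, SE 0.371, edgeR FDR 1.97e-16). Of its windows 32.0% are shared with other genes, fewer than in most H2A genes. Its divergent partner Hist1h2bn had a B6 share of 52.7% ± 1.12. Hist1h2ah was on the CAST side in 7 of 7 mice, with B6 shares of 6.95% to 35.7% (log2 fold change 1.92, SE 0.367), while its partner Hist1h2bk had 49.5% ± 1.19. Hist1h2ag had B6 shares of 26.5% to 37.7% (log2 fold change 1.13) and its partner Hist1h2bj 45.8% ± 0.640. Hist1h2ai, with 82.2 counts on average, was on the B6 side (74.6% to 97.7%). On chromosome 3, Hist2h2aa1 (B6 share 35.8% ± 2.07, log2 fold change 0.88) and Hist2h2aa2 (41.4% ± 0.631, log2 fold change 0.52) were on the CAST side together. All windows of Hist2h2aa2 occur in Hist2h2aa1, and since both were on the CAST side their sum was too. All windows of Hist2h2aa1 also occur in Gm20633, which is not a member. The sum can thus depend on reads divided with genes outside the pair, which was not tested. Hist1h2ae, the last call of this class (log2 fold change -0.54, FDR 0.122), was on the B6 side in 6 mice and on the CAST side in mouse 7. It was not called by DESeq2 (FDR 0.246), nor without mouse 2 (FDR 0.231), mouse 3 (0.201) or mouse 8 (0.236).

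Among H2B genes, 3 were called on the B6 side and 1 on the CAST side. Hist1h2be had a B6 share of 59.3% to 66.3% in the 7 mice (log2 fold change -0.73, SE 0.187, edgeR FDR 0.000766). Hist1h2bc had 37.2% to 42.9% (log2 fold change 0.62, SE 0.171, edgeR FDR 0.00219). Of the windows, 14.3% are shared in Hist1h2be and 27.1% in Hist1h2bc. Hist2h2be, with no shared window, had 87.4 B6 and 49.8 CAST counts on average and a B6 share of 51.5% to 78.3% (log2 fold change -0.78). Hist3h2ba, with 60.5% ± 3.86, was called at FDR 0.0162 and shares 13.9% of its windows with the pseudogene Hist3h2bb-ps. The 3 highest H2B genes, Hist1h2bk, Hist1h2bb and Hist1h2bn, had B6 shares of 49.5%, 49.0% and 52.7% and were not called (FDR 0.960, 0.874 and 0.693). Under the replicate block their FDR was 0.186, 0.000979 and 1.22e-06 with the likelihood-ratio test, all below the threshold, and 0.245, 0.0259 and 0.00554 with the quasi-likelihood test, by which Hist1h2bk was not called.

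Of the H3 genes, 3 were called on the B6 side and 1 on the CAST side. Hist2h3b had a B6 share of 88.1% at the lowest, 89.5% at the median and 97.0% at the highest (log2 fold change -3.22, SE 0.533, edgeR FDR 2.48e-08), but every window of it is shared with another gene. Hist1h3c had 56.3% to 61.8% (log2 fold change -0.54, edgeR FDR 0.00958) with 36.1% of windows shared. Hist1h3i was on the CAST side, with a B6 share of 30.0% to 39.0% (log2 fold change 0.97, edgeR FDR 2.02e-07), and Hist1h3h, which shares 70.3% of its windows with Hist1h3i, on the B6 side with 53.1% to 71.1%. The call of Hist1h3h (FDR 0.159) was lost without mouse 3 (0.306) or mouse 8 (0.301). The counts of the 2 genes together were 44.9% ± 2.09 B6. Hist1h3b, the highest H3 gene, and Hist1h3a had B6 shares of 53.3% ± 0.634 and 53.2% ± 1.10 and were not called (FDR 0.619 and 0.646). Both were called under the replicate block, with FDR 1.79e-22 and 4.95e-10 by the likelihood-ratio test and 0.000141 and 0.00185 by the quasi-likelihood test.

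Of the 13 H4 genes, 6 were called, 3 in each direction, beside a background of 34.5% of all tested genes. Shares of calls were not compared between classes. Hist1h4m had 2139, 2240, 2029, 2478, 3680, 1721 and 2986 B6 counts in mice 1, 2, 3, 4, 5, 7 and 8, against 25.9, 39.2, 27.8, 42.0, 64.9, 17.9 and 53.3 CAST counts, so the alleles did not overlap. Its log2 fold change was -6.02 (SE 0.250, edgeR FDR 2e-126). Its coding sequence is identical to that of Hist1h4n, whose B6 counts were 1071 to 2069 and CAST counts 1536 to 3271 (log2 fold change 0.64, SE 0.205, edgeR FDR 0.00944). The 2 genes together had a B6 share of 63.3% ± 0.545, from 62.5% to 64.2%. The pair was thus on the B6 side in all mice, although by far less than Hist1h4m alone. Reads that fit the B6 copy of 1 gene and the CAST copy of the other can move this share, which was not tested.

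Hist4h4, alone on chromosome 6 with 5.39% of windows shared, had B6 counts of 541 to 1285 and CAST counts of 1170 to 2755, ranges that overlap across mice. Its B6 share was 31.7%, 31.4%, 32.6%, 30.9%, 31.8%, 31.6% and 31.0% in mice 1, 2, 3, 4, 5, 7 and 8, a spread of 0.555 percentage points (SD). The log2 fold change was 1.14 (SE 0.182, edgeR FDR 6.98e-09), and 1.13 to 1.15 with each mouse left out in turn. Hist1h4i was on the B6 side with 60.5% to 66.1% (log2 fold change -0.70, edgeR FDR 0.00181). Hist1h4k was too, with 56.1% to 68.2% (log2 fold change -0.68, FDR 0.00204). Hist1h4j had 34.5% to 41.5% (log2 fold change 0.67, FDR 0.00757). The 2 highest H4 genes per kb of merged exons, Hist1h4f and Hist1h4h, had equal allele counts in every mouse.

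Equal allele counts were frequent among members. The B6 and CAST counts agreed to within 1e-06 in every mouse for 15 of 64 members (23.4%) and for 5.94% of all tested genes. Reads that fit both alleles equally well carry no information on the split, so exact equality need not be a measurement of balance. Of the 15, 11 stood close together on chromosome 13. The stretch from 23531050 to 23582735 (GRCm38/mm10, 51.7 kb) holds 13 tested genes, all of them members, from Hist1h4h to Hist1h4d, and was picked after the values were seen. Mean counts were 829 to 10485 for the equal genes, which included Hist1h1d, Hist1h2bg and Hist1h4d. Between Hist1h1d and Hist1h2bg lay the exceptions, Hist1h3e (B6 share 50.6% ± 0.342) and Hist1h2ae (59.6% ± 8.57). Outside this stretch, 3 of 49 members with a mean of at least 10 counts had equal alleles (Hist1h2ao, Hist1h2ap and Hist2h2ab), and so did Hist1h2aj, near 0 counts. Within 1 Mb on either side of it, equality was found for 0 of 15 members and 2 of 23 genes that reached 10 counts in all mice. Shared windows were few in some of the equal genes, 1.47% in Hist1h1d and 3.67% in Hist1h4d. Whether the strains differ in sequence there was not tested.

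**Figure D4:**
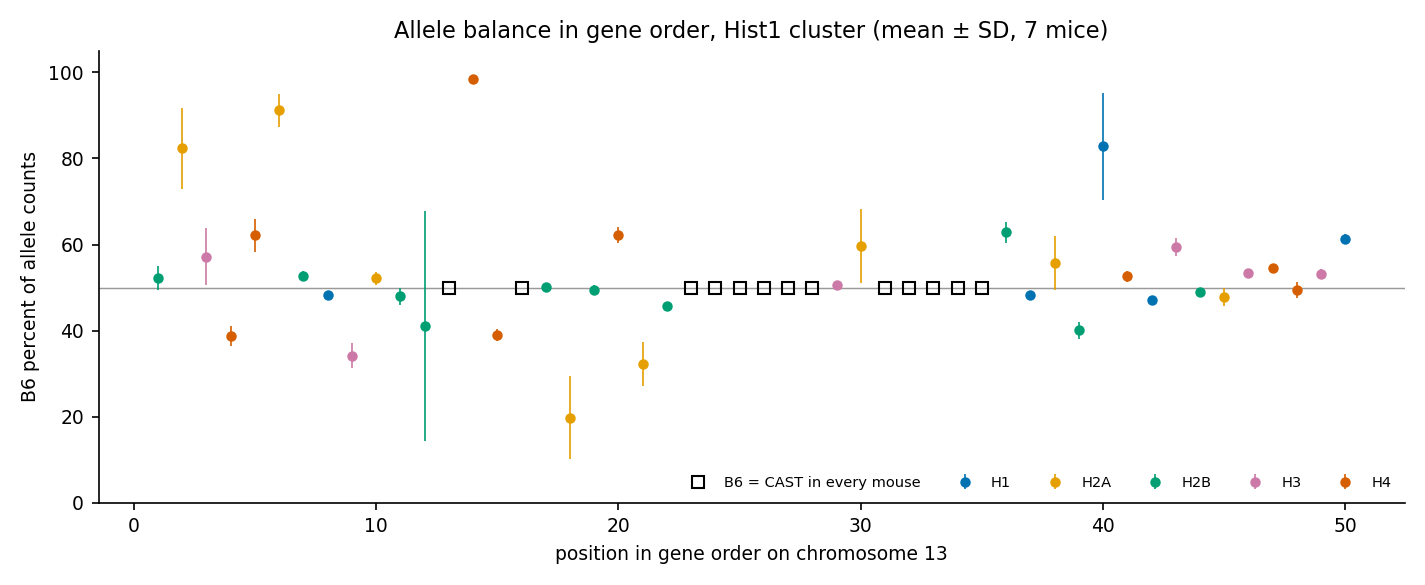
B6 percent of allele counts of the Hist1 genes on chromosome 13 with a mean of at least 10 counts, in gene order (not to distance), with points for the mean and bars for the SD over 7 mice; open squares are genes whose alleles were equal in every mouse. Of the 13 genes that run from Hist1h4h to Hist1h4d, 11 are open squares at 50%.

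The imbalance of a member was also set beside its shared sequence. Among the 5 members with no shared window, B6 shares were 61.4% for Hist1h1a, 48.2% for Hist1h1b, 82.8% for Hist1h1t, 64.4% for Hist2h2be and 54.5% for Hist2h4. Large imbalances were seen at both ends of the scale, from Hist4h4 (5.39% of windows shared) to Hist1h4m (89.0%) and Hist2h3b (100%). Over 11 pairs in which each gene shares more windows with the other than with any further gene, summed B6 shares ran from 43.9% ± 2.02 for Hist1h2ad and Hist1h2ah to 63.3% ± 0.545 for Hist1h4m and Hist1h4n, and that of Hist1h2ao and Hist1h2ap was 50%. Such pair shares can also depend on reads that fit the B6 copy of 1 gene and the CAST copy of the other.

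**Figure D5:**
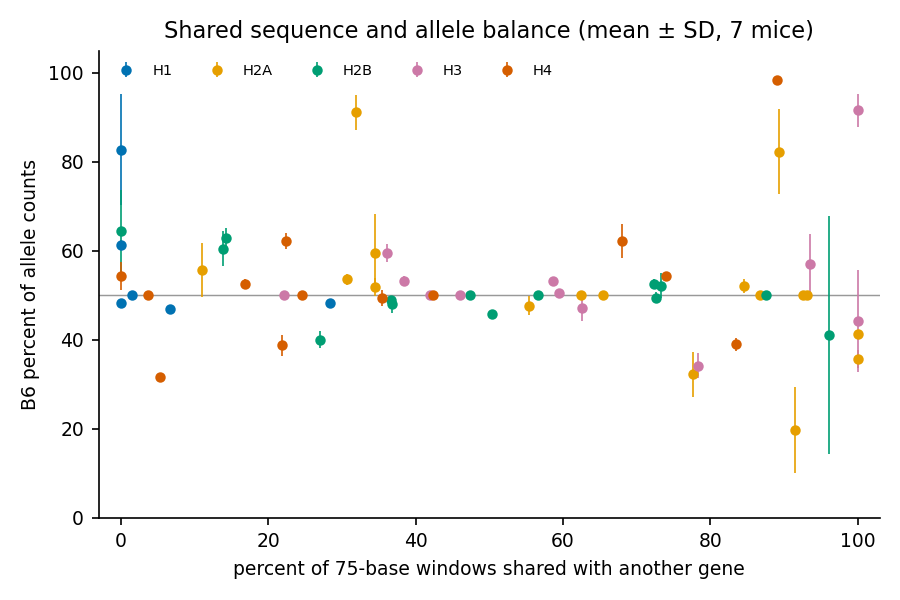
B6 percent of allele counts against the percent of 75-base windows of the gene that occur in another gene, for members with a mean of at least 10 counts, coloured by class; points are means and bars SD over 7 mice. Members far from 50% are found among those with few shared windows (Hist4h4, 31.6%) and among those with many (Hist1h4m, 98.5%).

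Histone genes outside these clusters encode replacement variants, and most of them make polyadenylated mRNAs and are not tied to S phase. The 11 on the list summed to 737 to 1088 CPM, lowest in mouse 4 and highest in mouse 7. The highest were H3f3a (202 ± 41.9 CPM) and H3f3b (179 ± 23.2), which encode H3.3, and H2afz (194 ± 32.7), which encodes H2A.Z. All 11 were tested and 4 were called, a share near the background of 34.5%, and these 4 were on the B6 side in 7 of 7 mice (background of calls on B6, 18.5%). These were H1f0, the H1 of resting cells (log2 fold change -0.39, edgeR FDR 0.00358), H2afy2 (-0.44, FDR 0.00595) and H2afy (-0.23, FDR 0.119), which encode macroH2A proteins, and H2afv (-0.23, FDR 0.131). The calls of H2afy and H2afv were lost without mouse 2 or 5 (FDR 0.224 and 0.254) and without mouse 1 or 2 (0.309 and 0.242), respectively, and that of H2afy also with total counts in place of TMM (0.255). The other 7 had log2 fold changes of -0.38 for H1fx, 0.13 for H2afx, -0.09 for Cenpa, 0.05 for H3f3a, -0.03 for H3f3b, 0.02 for H2afz and 0.00 for H2afj. Under the replicate block, H2afx (FDR 0.000413) and H3f3a (0.166) also passed with the likelihood-ratio test.

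Genes that make, process and place histone mRNAs and proteins were read against the same background of 34.5% of all tested genes. Of 24 genes for transcription and mRNA processing, 8 were called, 3 on CAST and 5 on B6, a share near the background. Slbp, which binds the stem-loop, had 25.8 ± 4.05 CPM and a log2 fold change of -0.12 (FDR 0.491), and Npat, the co-activator of histone genes, 10.6 ± 0.988 CPM and 0.09 (FDR 0.766). Casp8ap2, a component of histone locus bodies, had -0.48 (FDR 0.0353), a call lost without mouse 2 (FDR 0.225), and Coil, which encodes coilin, 0.39 (FDR 0.0288). Of 22 chaperone and assembly genes, 4 were called, a share below the background, and this difference was not tested. Hjurp, the chaperone of the centromeric H3, had 3316 CAST and 673 B6 counts on average, was higher on CAST in 7 of 7 mice and had a log2 fold change of 2.34 (SE 0.105, edgeR FDR 1.04e-108). Ipo4, an importin that carries H3 and H4, had 0.38 (FDR 0.00124) and Mms22l -0.53 (FDR 0.00243). Of 36 DNA replication genes, 14 were called, 5 on CAST and 9 on B6, among them Rfc2 (-0.80) and Rpa1 (0.47). The calls on the B6 side in these lists include the X-linked genes Cstf2 (463 B6 and 116 CAST counts) and Pola1 (298 and 2.90). Males have a single X chromosome, so these genes say nothing on allele balance. In all 4 lists together, 30 of 93 genes were called, and 50 under the replicate block, where the background was 45.3% of all tested genes. Fitted on autosomal genes alone, 27 of 90 were called, 10 on CAST and 17 on B6, with no separate background computed.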

How the data were processed

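RNA came from tibial growth plates of 7 F1 mice. Per the labels, 200 ng of total RNA depleted of rRNA went into each library and 75-base read pairs were made. The average read number per sample that the labels give is below the totals of the deposited tables, and the cause was not tested. Reads were aligned by the authors with Bowtie (at most 3 mismatches, all best alignments kept) against a pool of B6 and CAST transcripts built on mm10, and EMASE turned the alignments into estimated counts for each gene and allele. These estimated counts were deposited without normalization and hold decimals. The submitters' processing notes also name SAMtools. Tool versions were not given in the sources used here.

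Counts were kept to 9 decimals, which sets residues of the estimation to 0. A gene was tested if either allele had a count above 0 in all mice, which gave 20239 genes. Their rounded counts were compared between alleles in R 4.3.3 with edgeR 4.0.16 on limma 3.58.1 (TMM, estimateDisp, glmFit and glmLRT on the allele), and FDR is Benjamini-Hochberg over all of them. SE is the log2 fold change divided by the square root of the likelihood-ratio statistic. CPM is relative to the deposited total, with no test. Single-mouse log2 ratios used a pseudocount of 0.5. Windows, stem-loops and coding sequences came from GENCODE release M21 transcripts (GRCm38/mm10), and promoters from RefSeq, which matched 66 members. Python 3.11.15 with numpy 2.4.6, pandas 2.3.3, scipy 1.17.1 and matplotlib 3.10.9 was used. The edgeR fit was tested on simulated data.

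Members and gene lists were chosen with earlier results of these data known. Named genes were the 3 highest of each class per kb, called members up to the 20 with the smallest P, members at 0, members in which 1 mouse stands apart, the testis members, the 3 called genes of smallest P per list, all replication-independent histone genes, Slbp and Npat. Others were named after their values were seen. Alternatives were the quasi-likelihood test of edgeR, DESeq2 1.42.0, changed library sizes, filters, gene sets and thresholds, unrounded counts, a replicate block for the mouse, and leaving out each mouse. The pairing comes from the design, since a mouse gave a single library that holds both of its alleles. Over 15111 genes, deviations of the 2 alleles from their means correlated by 0.059 on average within mice (lowest -0.055). Between mice the average was -0.01 (highest 0.172). These correlations were not computed for the members alone, whose calls rose from 23 to 43 with the block. Depth was 14098019 to 37849667 counts per mouse. The samples are numbered mice of a single group. Without the block, P-values measure the spread of counts between mice, not that of the difference between alleles within a mouse. Only the fits with the replicate block take up the pairing.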

Additional observations from a re-analysis of the deposited data

Results flagged for a closer look

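Values in which a single mouse stood apart from the other 6 (Dixon's test at 95%) were found in 6 of 118 sets of 7 values, and chance gives about 5.9. The B6 share of all histone counts was 50.32% in mouse 7 and 50.71% to 50.88% in the rest, and the B6 share of H2A counts was 46.29% in mouse 7 and 47.3% to 48.05% in the rest. Mouse 7 had the fewest counts, and its part in this was not tested.

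For single genes, the log2 ratio of CAST to B6 counts of Hist1h2ae was 0.465 in mouse 7, against -1.063 to -0.4834 in the others. That of Hist1h3h was -1.298 in mouse 3, against -0.5939 to -0.1788, that of Hist1h4i -0.9639 in mouse 5, against -0.7396 to -0.6169, and that of Hist1h1c 0.2437 in mouse 2, against 0.13 to 0.1671. The pseudogene Hist3h2bb-ps, which the choice of members left out, had 299.0 counts on average, from 185.0 to 575.1 per mouse.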

How the results depend on the processing

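The count of 23 called members was 22 to 24 under the other tests, library sizes, filters and rounding, 21 at an FDR under 0.05, and 21 to 25 with each mouse left out. With the mouse as a replicate block it was 43 with the likelihood-ratio test and 42 with the quasi-likelihood test, against 23 without the block. Fitted on genes with whole totals alone, 2 of 3 members were called. For the 30 called pathway genes, the replicate block gave 50 and 48, genes with whole totals 18 of 42, the threshold of 0.05 gave 14, and leaving out a mouse gave 24 to 30. The mean summed histone level of 7838 CPM became 9881 without Rn7s1, Rn7s2 and Rn7sk, 10686 with protein-coding counts as denominator, 601.3 with the 3 whole-total members alone, and 7471 to 8194 with a mouse left out. Class shares without division by length were 24.28% for H1, 12.62% for H2A, 23.64% for H2B and 24.65% for H4, and with coding length 15.09%, 13.06%, 25.1% and 32.12%. They were not run on whole-total members, which are all H1. The B6 share of 50.75% was 54.56% over whole-total members, 52.93% as a mean over members, and 50.73% to 50.82% with a mouse left out. Of 1016 refits of 53 named genes, 974 kept direction and side of the threshold, 16 lost and 19 gained the call. Direction turned for H2afj, at -0.01 with a single library size per mouse, -0.004 on autosomal genes and -0.06 to -0.01 without mice 1, 2, 4 or 5 (-0.06 to 0.09 over all mice left out), and for Npat, at -0.05 without mouse 8 (-0.05 to 0.18). Neither was called. Read sharing and a mean under 30 counts for Hist1h1t, Hist1h2bq and Hist2h3c1 limit single-gene values.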
